A study of Mus musculus with 15 samples.

Results

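The genes followed here are 10 regulators and effectors of fat cell differentiation and lipid handling, namely Pparg, Cebpa, Cebpb, Cebpd, Zfp423, Fabp4, Lpl, Cd36, Plin2 and Agt. They were chosen by gene symbol in the platform annotation, which assigned 18 probe sets to them, out of 18193 named genes and 45037 probe sets on the array. No probe set was shared between a member and another gene. Where several probe sets read a gene, the brightest on average stands for it, and the others are given beside it.

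Expression was measured in primary chondrocytes, the cells of cartilage, dissected from CD1 mouse embryos at day 15.5 and grown in monolayer. Total RNA of 15 cultures was hybridized to Affymetrix mouse expression arrays, with 3 biological replicates for each of 5 treatments. The controls received DMSO, the solvent of the inhibitors, and no group carried a genetic change. LY294002 inhibits PI3K, UO126 inhibits the kinase MEK, and Trichostatin A inhibits histone deacetylases. SB202190 is listed by the submitters among MEK/ERK pathway inhibitors and is in general use as an inhibitor of p38 kinases, and its arrays are titled SB90. For the length of treatment the labels say 24 h, as do the study's methods for LY294002, and the series' design text says 2 h. The study's methods give a dose of 10 µM for LY294002, and the doses of the other inhibitors are not given in the sources used here.

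Chondrocytes, adipocytes and osteoblasts arise from related mesenchymal precursors. In preadipocytes, C/EBPβ and C/EBPδ are induced early and C/EBPα and PPARγ follow, after which PPARγ and C/EBPα maintain each other and switch on genes such as Fabp4, Lpl, Cd36 and Plin2. ZFP423 marks committed preadipocytes, and C/EBP proteins also act in chondrocytes, where C/EBPβ is known for a part in hypertrophic differentiation.

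All values are log2 signals, on which a difference of 1 is a doubling, and differences were tested with limma against a Benjamini-Hochberg adjusted p of 0.05 over all probe sets tested. The array medians lay between 6.9 and 7.0. The chondrocyte markers were measured in every treatment, none of the 10 below a signal of 50 on average. Of the adipocyte markers, 6 of 8 were named on the array, and Adipoq and Cidec, which define mature fat cells, had means under a signal of 50 in every treatment. The other 4 lay above it, with DMSO means of 8.19 for Retn, 7.83 for Slc2a4, 7.12 for Car3 and 6.11 for Lep. Of 11 macrophage markers, Ptprc and Itgam were under 50 in every treatment and 9 were not, among them Lyz2 (9.05 in DMSO) and Csf1r (8.76). Of 8 endothelial markers, Pecam1, Cdh5 and Tie1 were under 50 in every treatment and 5 were not, among them Kdr (7.99) and Esam (7.32). None of 8 fibroblast and perichondrium markers was under 50, with DMSO means of 13.59 for Col1a1 and 13.28 for Col3a1. The same held for 8 skeletal muscle markers, among them Acta1 (9.45). The summed signal of these sets in the DMSO arrays was 27941 to 33359 and 1762 to 3425, against 58032 to 62057 for the chondrocyte markers.

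The members responded most widely to Trichostatin A. Of the 9 genes with a mean above the lower limit of the test in both groups, 2 were higher and 6 were lower than in DMSO, and 1 did not pass. The remaining gene, Cd36, entered the test only through DMSO, where it was brighter, so its call is not counted. Of all genes tested, each read by 1 probe set, 27.0% were higher and 22.7% were lower in this comparison. In LY294002 1 member was higher and 2 were lower, where 8.85% of all genes were higher and 2.21% were lower. In UO126 1 member was higher and 1 was lower, where 1.66% of all genes were higher and 1.02% were lower. In SB202190 2 members were higher and 8 did not pass, where 1.70% of all genes were higher and 1.01% were lower. The median size of the log2 differences of these 9 members was 0.72 in Trichostatin A, against 0.23 over all probe sets tested. Over all 10 members it was 0.26 in LY294002, 0.26 in UO126 and 0.28 in SB202190, against 0.14, 0.08 and 0.09 over all probe sets. Neither the shares in Trichostatin A nor these medians are like for like. The shares over all genes include genes above the limit in 1 group only, which the count of members leaves out. For the medians, each member was read by its brightest probe set, whereas all probe sets include dim ones. The medians of the related lists further below have the same limit. The members were also chosen with earlier results of these data known. The 4 comparisons use the same DMSO arrays, so they are not independent of each other.

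**Figure D1:**
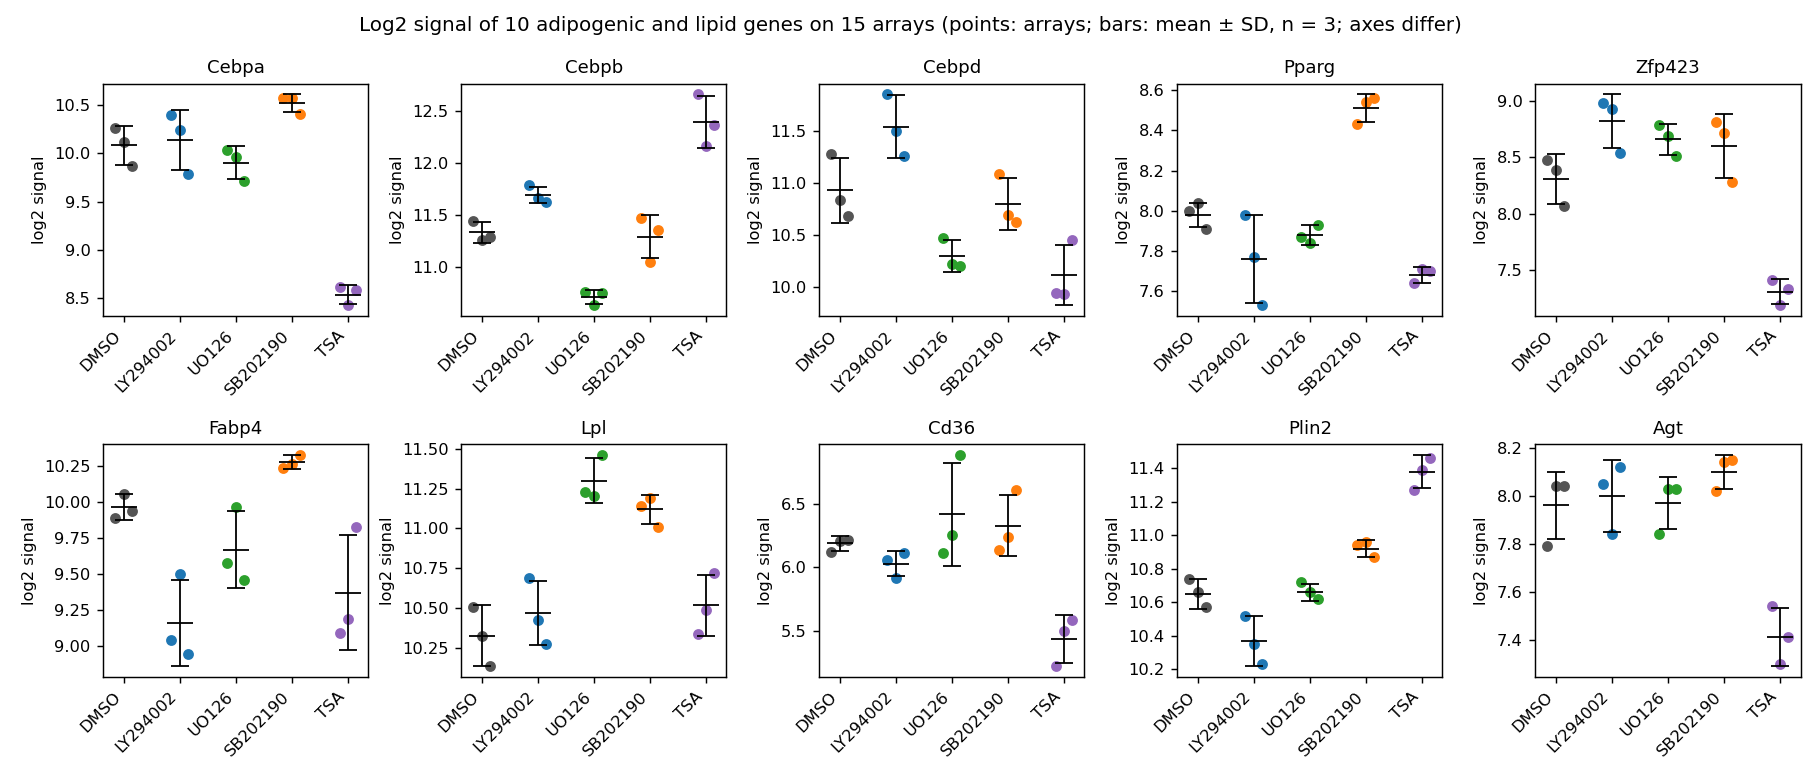
Log2 signal (vertical axes, scaled per gene) of the 10 genes in each of the 15 arrays, by treatment (horizontal axes; TSA is Trichostatin A). Points are arrays, in replicate order, and bars are the mean ± SD (n = 3). The Trichostatin A arrays lie below all others for Cebpa, Zfp423, Cd36 and Agt, and above all others for Cebpb and Plin2.

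Cebpa, which encodes the factor C/EBPα that sustains the mature fat cell program, had the largest difference of any member. Its log2 signal was 10.26, 10.12 and 9.87 in the DMSO arrays, 10.40, 10.24 and 9.79 in LY294002, and 10.03, 9.96 and 9.71 in UO126. It was 10.57, 10.57 and 10.41 in SB202190, and 8.62, 8.43 and 8.59 in Trichostatin A. The Trichostatin A arrays lay below all other arrays, while those of LY294002 and UO126 overlapped DMSO. In Trichostatin A it fell by 1.54 ± 0.14 (SE) on the log2 scale, a 2.9-fold decrease (adjusted p = 1.14e-07 from limma). In SB202190 all arrays lay above DMSO, with a difference of 0.44 ± 0.14 that did not pass (adjusted p = 0.146). With the replicate number as a block it passed (adjusted p = 0.0129).

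Cebpb, which encodes C/EBPβ, moved the other way in Trichostatin A. The DMSO arrays had log2 signals of 11.44, 11.26 and 11.29, the UO126 arrays 10.76, 10.63 and 10.75, and the Trichostatin A arrays 12.66, 12.16 and 12.36. The LY294002 arrays had 11.79, 11.66 and 11.62, and the SB202190 arrays 11.47, 11.05 and 11.35. UO126 was the lowest group and Trichostatin A the highest, neither overlapping DMSO, while SB202190 straddled the controls. In Trichostatin A Cebpb rose by 1.06 ± 0.12, or 2.09-fold (adjusted p = 1.77e-06 from limma), and in UO126 it fell by 0.62 ± 0.12 (adjusted p = 0.0105). In UO126 the adjusted p was 0.0518 without UO126 replicate 2. In LY294002 the difference was 0.36 ± 0.12, with all arrays above DMSO (adjusted p = 0.0793, or 0.00726 with the replicate number as a block).

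The second probe set of Cebpb followed the same order of treatments, from a mean of 8.66 in UO126 to 10.41 in Trichostatin A. Its difference in Trichostatin A was 1.14 ± 0.16 (adjusted p = 1.61e-05 from limma) and that in UO126 was -0.61 ± 0.16 (adjusted p = 0.0614).

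The bases before the starts of Cebpa and Cebpb are shown because these were the members with the largest fall and the largest rise. Each sequence covers 250 bases upstream of the RefSeq transcription start on the plus strand of build GRCm38.p6, at chr7:35119043-35119292 for Cebpa and chr2:167688665-167688914 for Cebpb. Capitals mark matches on either strand to TTGCG, a C/EBP half-site, to TATAA, the core of a TATA box, and to GGGCGG, a GC box.
Cebpa: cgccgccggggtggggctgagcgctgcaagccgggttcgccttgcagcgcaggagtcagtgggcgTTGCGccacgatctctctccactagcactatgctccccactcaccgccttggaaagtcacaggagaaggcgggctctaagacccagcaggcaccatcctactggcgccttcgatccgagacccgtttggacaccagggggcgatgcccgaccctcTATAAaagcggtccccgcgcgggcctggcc
Cebpb: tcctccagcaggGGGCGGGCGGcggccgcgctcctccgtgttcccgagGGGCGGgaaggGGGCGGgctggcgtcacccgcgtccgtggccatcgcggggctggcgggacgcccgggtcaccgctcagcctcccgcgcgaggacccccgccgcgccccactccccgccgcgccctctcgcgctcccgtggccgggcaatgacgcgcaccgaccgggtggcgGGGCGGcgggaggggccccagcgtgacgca

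The Cebpa window held TTGCG at -185 and TATAA at -30 from the start. The Cebpb window held 5 matches to GGGCGG, of which those at -238 and -234 overlap, and no match to the other motifs. Over 32817 promoter windows of this length, 14.5% held TTGCG, 22.8% held TATAA and 32.7% held GGGCGG. The Cebpb window had 41 CpG dinucleotides and 81.6% G and C, and the Cebpa window had 22 and 66.4%, where the medians over all windows were 6 and 52.4%. Windows were matched for 7 of the 10 members, the others being Cebpd, Fabp4 and Lpl, and among the 10 starts of the 7 only that of Cebpa held TTGCG. These matches are a description of the letters in each window.

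Cebpd, which encodes C/EBPδ, was measured at 11.28, 10.84 and 10.68 in DMSO, 10.47, 10.22 and 10.21 in UO126, and 9.95, 9.94 and 10.45 in Trichostatin A. The LY294002 arrays had 11.85, 11.50 and 11.26 and the SB202190 arrays 11.09, 10.69 and 10.63. The LY294002 arrays reached highest but overlapped the range of DMSO, and the UO126 and Trichostatin A arrays were all below DMSO. Cebpd fell by 0.82 ± 0.18 in Trichostatin A (adjusted p = 0.00144 from limma). The differences of 0.60 ± 0.18 in LY294002 and -0.63 ± 0.18 in UO126 did not pass (adjusted p = 0.0505 and 0.106). With the replicate number as a block they did (0.00872 and 0.0163). A dimmer second probe set, with treatment means from 6.61 to 6.96, was also lower in Trichostatin A (-0.35 ± 0.10, adjusted p = 0.00738), and gave -0.04 in LY294002 and -0.09 in UO126.

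Pparg, the nuclear receptor at the centre of adipogenesis, had log2 signals of 8.00, 8.04 and 7.91 in DMSO and 8.43, 8.54 and 8.56 in SB202190. The values were 7.64, 7.71 and 7.70 in Trichostatin A, 7.98, 7.77 and 7.53 in LY294002, and 7.87, 7.84 and 7.93 in UO126. SB202190 stood above every other group without overlap. Pparg rose by 0.53 ± 0.10, or 1.44-fold, in SB202190 (adjusted p = 0.00774 from limma). It fell by 0.30 ± 0.10 in Trichostatin A (adjusted p = 0.0175), a call lost without DMSO replicate 2 (0.0623) or Trichostatin A replicate 1 (0.0583).

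Zfp423, the preadipocyte determination factor, was measured at 8.48, 8.39 and 8.07 in DMSO and 7.41, 7.19 and 7.33 in Trichostatin A. The LY294002 arrays gave 8.98, 8.93 and 8.54, the UO126 arrays 8.79, 8.69 and 8.51, and the SB202190 arrays 8.81, 8.72 and 8.28. Trichostatin A lay below all other arrays, LY294002 and UO126 lay above DMSO, and SB202190 overlapped it. Zfp423 fell by 1.01 ± 0.15, or 2.01-fold, in Trichostatin A (adjusted p = 2.89e-05 from limma). It rose by 0.50 ± 0.15 in LY294002 (adjusted p = 0.0454), where the adjusted p ran from 0.00147 to 0.199 over 15 alternative settings. Leaving out DMSO replicate 2 or 3 or LY294002 replicate 1 or 2 was enough to lose this call. In UO126 the difference was 0.35 ± 0.15 (adjusted p = 0.412, or 0.041 with the replicate number as a block).

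**Figure D2:**
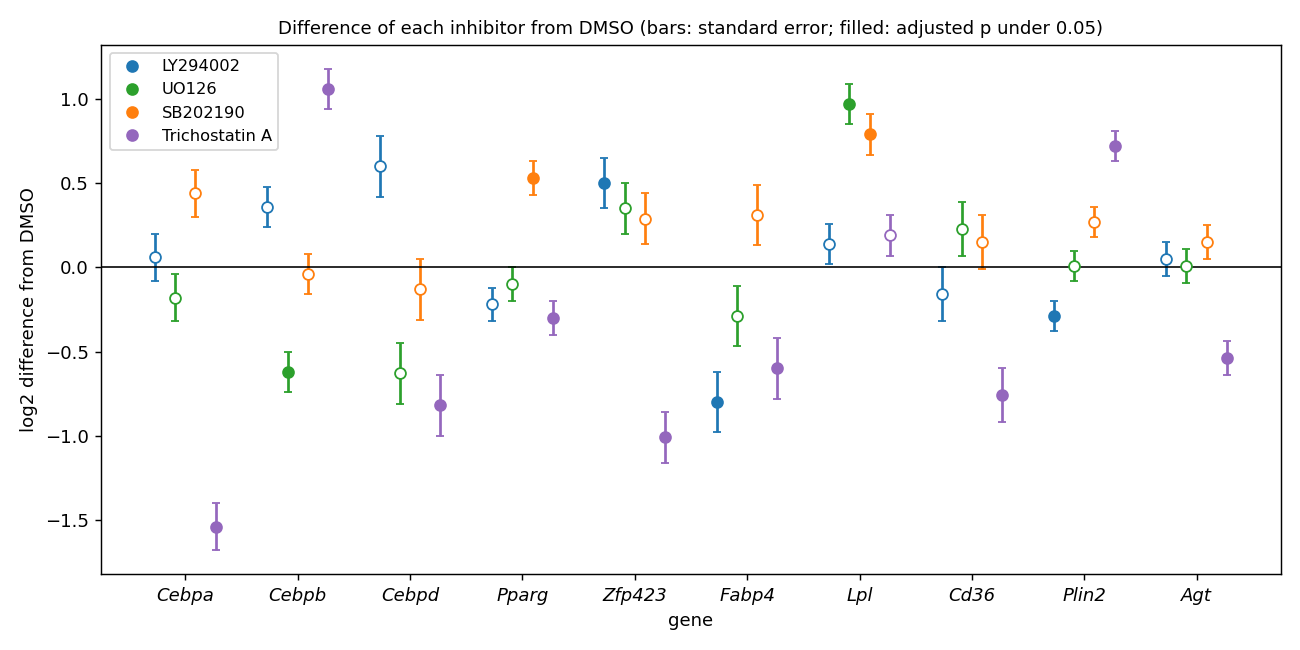
Log2 difference of each inhibitor from DMSO (vertical axis) for the 10 genes (horizontal axis), from limma. Bars are standard errors, and filled points have an adjusted p under 0.05. Trichostatin A gave filled points for every gene except Lpl, where UO126 and SB202190 did, and its point for Cd36 passed the limit of the test only through DMSO.

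Of the lipid handling genes, Lpl was raised by both UO126 and SB202190 and by neither of the other inhibitors. It encodes lipoprotein lipase, which releases fatty acids from circulating triglyceride. The log2 signals were 10.51, 10.33 and 10.14 in DMSO, 11.23, 11.20 and 11.46 in UO126, and 11.14, 11.19 and 11.01 in SB202190. They were 10.69, 10.43 and 10.28 in LY294002 and 10.34, 10.49 and 10.72 in Trichostatin A. The UO126 and SB202190 arrays lay above all others, and those of LY294002 and Trichostatin A overlapped DMSO. Lpl rose by 0.97 ± 0.12, or 1.96-fold, in UO126 (adjusted p = 3.29e-04 from limma) and by 0.79 ± 0.12, or 1.73-fold, in SB202190 (adjusted p = 0.00337). The second probe set of Lpl also rose in both, by 0.66 ± 0.13 (adjusted p = 0.00928) and 0.56 ± 0.13 (adjusted p = 0.029). In Trichostatin A the difference was 0.19 ± 0.12 (95% interval -0.07 to 0.45), and in LY294002 it was 0.14 ± 0.12 (-0.12 to 0.40).

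Fabp4 encodes the fatty acid binding protein of adipocytes and macrophages. Its log2 signal was 9.89, 10.06 and 9.94 in DMSO, 9.04, 9.50 and 8.94 in LY294002, and 9.09, 9.19 and 9.83 in Trichostatin A. It was 9.58, 9.97 and 9.46 in UO126 and 10.24, 10.27 and 10.33 in SB202190. The LY294002 and Trichostatin A arrays all lay below DMSO, though Trichostatin A replicate 3 was close to it, and the SB202190 arrays lay above. Fabp4 fell by 0.80 ± 0.18, or 1.75-fold, in LY294002 (adjusted p = 0.0103 from limma) and by 0.60 ± 0.18 in Trichostatin A (adjusted p = 0.0115). The first call had an adjusted p of 0.0509 without LY294002 replicate 1. The second had 0.0702 without Trichostatin A replicate 1 and 0.0515 without Trichostatin A replicate 2.

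The second probe set of Fabp4 fell by 0.87 ± 0.14 in LY294002 (adjusted p = 0.00146 from limma) and by 0.55 ± 0.14 in Trichostatin A (adjusted p = 0.00388). A further 2 probe sets of Fabp4 were dim, with treatment means from 5.79 to 6.40, and adjusted p-values from 0.279 to 0.993 in the comparisons with DMSO. In SB202190 the difference of the brighter probe set was 0.31 ± 0.18 (adjusted p = 0.526).

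**Figure D3:**
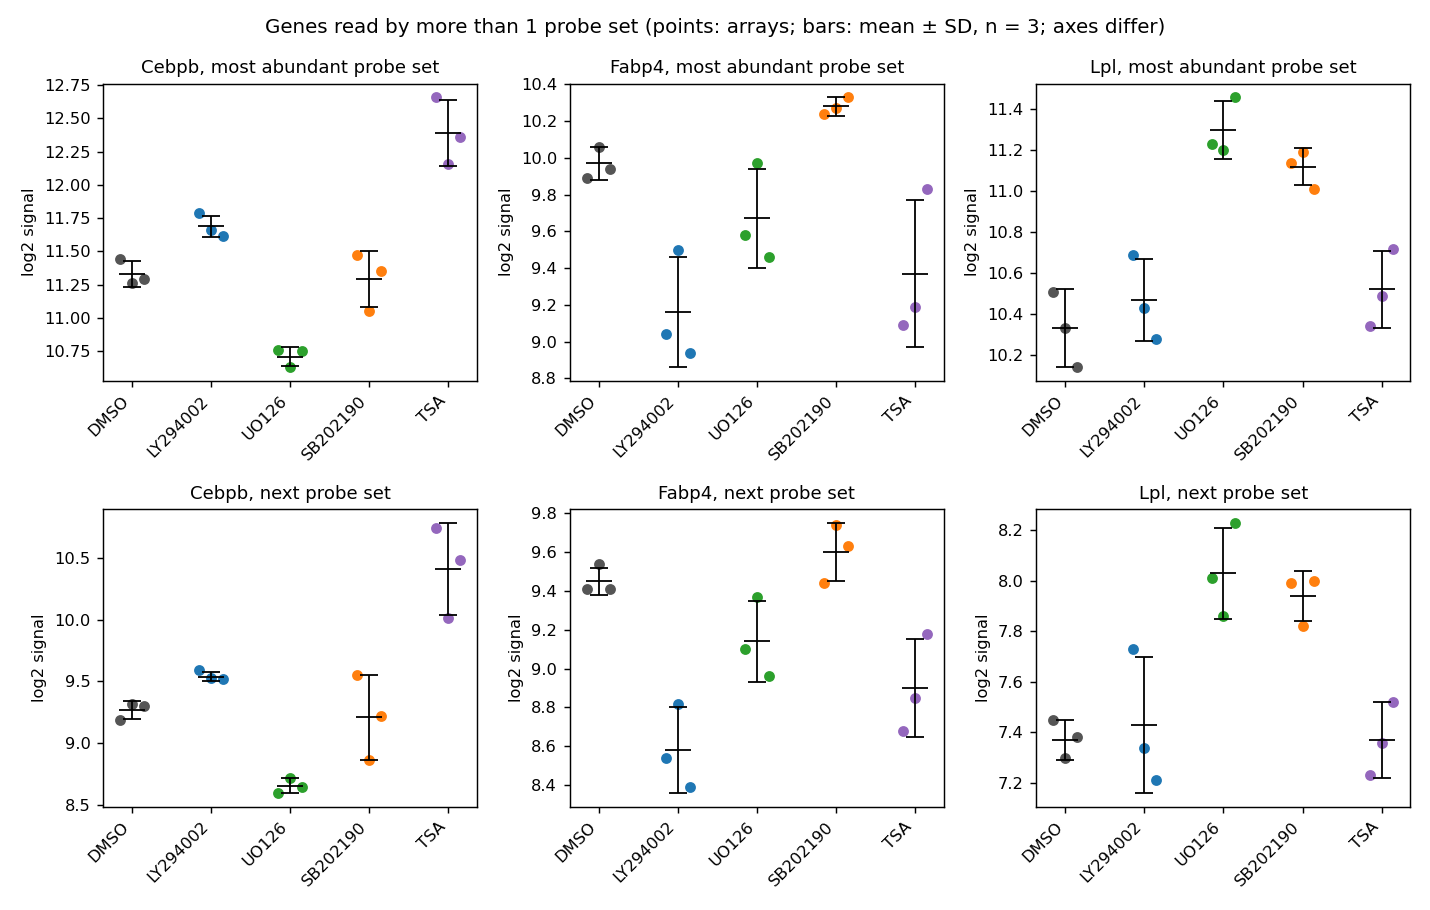
Log2 signal (vertical axes, scaled per panel) of the 2 brightest probe sets of Cebpb, Fabp4 and Lpl by treatment (horizontal axes; TSA is Trichostatin A). Points are arrays and bars the mean ± SD (n = 3). For each gene both probe sets place the same treatments above and below DMSO where a call was made, Cebpb highest in Trichostatin A, Fabp4 lowest in LY294002 and Lpl highest in UO126.

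Plin2, which coats lipid droplets in most cell types, had log2 signals of 10.74, 10.66 and 10.57 in DMSO and 11.27, 11.39 and 11.46 in Trichostatin A. The LY294002 arrays had 10.52, 10.35 and 10.23, the UO126 arrays 10.72, 10.66 and 10.62, and the SB202190 arrays 10.94, 10.96 and 10.87. The Trichostatin A arrays were above all others, the SB202190 arrays above DMSO and the LY294002 arrays below it. Plin2 rose by 0.72 ± 0.09, or 1.65-fold, in Trichostatin A (adjusted p = 3.13e-06 from limma). It fell by 0.29 ± 0.09 in LY294002 (adjusted p = 0.0495), with adjusted p-values from 0.00333 to 0.197 over 15 alternative settings. That call was lost on leaving out any array of DMSO, or LY294002 replicate 2 or 3. In SB202190 the difference was 0.27 ± 0.09 (adjusted p = 0.149).

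Cd36, the fatty acid translocase, was near the lower limit of the test, which required a mean of 5.64 in either group. The signal of its brightest probe set was 6.12, 6.21 and 6.22 in DMSO and 5.22, 5.50 and 5.58 in Trichostatin A. It was 6.06, 5.92 and 6.11 in LY294002, 6.11, 6.26 and 6.89 in UO126, and 6.14, 6.24 and 6.61 in SB202190. The Trichostatin A arrays were below all others and below the limit, and replicate 3 was the highest array in UO126 and in SB202190. The difference of -0.76 ± 0.16 in Trichostatin A is a description without a test, since the probe set passed the limit only through the brighter group. The other probe sets of Cd36 were not tested, with DMSO means of 5.40 and 4.16 and differences of -0.77 and 0.04 in Trichostatin A.

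Agt encodes angiotensinogen, the precursor of angiotensin peptides, which fat tissue also secretes. Its log2 signals were 7.79, 8.04 and 8.04 in DMSO and 7.54, 7.30 and 7.41 in Trichostatin A. The LY294002 arrays had 8.05, 7.84 and 8.12, the UO126 arrays 7.84, 8.03 and 8.03, and the SB202190 arrays 8.02, 8.14 and 8.15. Apart from the Trichostatin A arrays, which lay below the rest, the groups overlapped. Agt fell by 0.54 ± 0.10, or 1.45-fold, in Trichostatin A (adjusted p = 3.01e-04 from limma), and its differences in the other inhibitors were between 0.01 and 0.15.

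With the replicate number as a block, 5 members passed in LY294002, 4 in UO126 and 3 in SB202190, the additional genes being those named above with a blocked value. The block also raised the calls over all probe sets, from 2978 to 6370 in LY294002, 667 to 1507 in UO126 and 669 to 1905 in SB202190. Beside the members' falls in Trichostatin A, all 10 chondrocyte markers were lower than in DMSO, with a summed signal of 28390 to 36991 per array against 58032 to 62057. Of the macrophage markers 6 of 11 were lower and 1 was higher, with a summed signal of 2042 to 2179 against 1936 to 2362. Of the fibroblast and perichondrium markers 5 of 8 were lower and 2 were higher, and of the skeletal muscle markers 7 of 8 were lower. Over all genes 27.0% were higher and 22.7% were lower in Trichostatin A. In LY294002 and UO126 the summed signal of the chondrocyte markers was above DMSO, at 74371 to 78366 and 74089 to 88031, with 2 markers higher in each. In SB202190 it was 51365 to 59977, overlapping DMSO. The summed signal of the 6 adipocyte markers was 753 to 841 in DMSO, and above it in UO126 (951 to 1063) and SB202190 (1012 to 1091). In each of these 1 adipocyte marker, Car3, was higher. The sum was 722 to 792 in LY294002 and 776 to 994 in Trichostatin A, both overlapping DMSO. That of the skeletal muscle markers was 1762 to 3425 in DMSO, 2295 to 4422 in UO126 and 2599 to 4242 in SB202190, overlapping, with none called. Of the macrophage markers, 1 was higher in LY294002 and 1 in SB202190, counted apart, and 1 fibroblast marker was lower in LY294002. Over all genes 8.85% were higher and 2.21% lower in LY294002, 1.66% and 1.02% in UO126, and 1.70% and 1.01% in SB202190. In these bulk cultures fewer cells of a type and less RNA per cell cannot be told apart. The part of these changes in the members' differences was not tested.

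The inhibitors were also compared with each other. UO126 and SB202190 shared the rise of Lpl, with a difference between them of 0.18 (95% interval -0.08 to 0.45, adjusted p = 0.614 from limma). Of the 10 members, 3 were lower in UO126 than in SB202190 and 7 did not pass, where 3.32% of all genes were lower and 3.59% were higher. These were the transcription factors Pparg (-0.63 ± 0.10, adjusted p = 5.95e-04), Cebpa (-0.62 ± 0.14, 0.013) and Cebpb (-0.58 ± 0.12, 0.00785). With the replicate number as a block 5 members passed, and without SB202190 replicate 1 only 1 did. Between inhibitors, the blocked counts of members have no blocked share over all genes beside them. They therefore cannot be read as particular to the members.

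Between LY294002 and UO126, 2 members were higher in LY294002 and 1 was lower, where 4.91% of all genes were higher and 2.36% were lower. By limma, Cebpd was higher by 1.23 ± 0.18 (2.35-fold, adjusted p = 8.35e-04) and Cebpb by 0.98 ± 0.12 (1.97-fold, 2.10e-04), with no overlap between the arrays, while Lpl was lower (-0.83 ± 0.12, 9.43e-04). With the replicate number as a block 6 members passed. Between LY294002 and SB202190, 1 member was higher in LY294002 and 4 were lower, where 3.81% of all genes were higher and 2.19% were lower. Cebpd was higher, by 0.73 ± 0.18 (adjusted p = 0.0291). The lower genes were Fabp4 (-1.12 ± 0.18, 0.00141), Pparg (-0.75 ± 0.10, 2.56e-04), Lpl (-0.65 ± 0.12, 0.00554) and Plin2 (-0.56 ± 0.09, 0.00119). For each of these genes the arrays of LY294002 and SB202190 did not overlap. With the replicate number as a block 7 members passed in place of 5, and 4 or 5 did on leaving out 1 array.

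Cd36 was below the limit in Trichostatin A and is left out of the comparisons with it. The other 9 members differed between SB202190 and Trichostatin A, 7 being higher in SB202190 and 2, Cebpb and Plin2, lower. Of all genes, 20.6% were higher and 24.3% were lower in SB202190. The largest was Cebpa, 3.92-fold higher in SB202190 (1.97 ± 0.14, adjusted p = 6.99e-09 from limma). LY294002 and Trichostatin A differed in 6 of the 9, of which 4 were higher and 2 lower in LY294002, where 23.6% of all genes were higher and 23.0% were lower. Pparg, Fabp4 and Lpl did not pass there, with 95% intervals of -0.13 to 0.28, -0.58 to 0.17 and -0.31 to 0.21. UO126 and Trichostatin A likewise differed in 6, of which 4 were higher and 2 lower in UO126, where 23.5% of all genes were higher and 25.9% were lower. Cebpb spanned 3.21-fold between these inhibitors (-1.68 ± 0.12, adjusted p = 7.59e-09).

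Ordered by mean, only some neighbouring treatments differed. For Cebpb the order was Trichostatin A, LY294002, DMSO, SB202190 and UO126, and the first step (0.70, adjusted p = 1.50e-04 from limma) and the last (0.58, 0.00785) passed the test. For Plin2 the order was Trichostatin A, SB202190, UO126, DMSO and LY294002, and again the first (0.45, 4.39e-04) and last (0.29, 0.0495) steps passed. For Cebpd and Fabp4 no step between neighbours passed (adjusted p from 0.0505 to 0.858 and from 0.186 to 0.698), although their means spanned 1.42 and 1.12. For Pparg the step below SB202190 was the only 1 that passed, and for Cebpa, Zfp423 and Agt it was the step down to Trichostatin A.

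Of 28 other adipogenic transcription factors and regulators, 27 could be tested in Trichostatin A, where 11 were higher and 10 were lower, against 27.0% and 22.7% of all genes. The 11 include Gata3, a repressor of Pparg in preadipocytes, which entered the test only through its brighter group (5.40 in DMSO and 6.25 in Trichostatin A). The call of Gata3 is therefore a description without a test, as for Cd36, and carries no weight in that count. Id2, an inhibitor of basic helix-loop-helix factors, rose by 1.50 ± 0.15 (adjusted p = 3.27e-07 from limma). Klf5, which acts on the Pparg promoter in preadipocytes, rose by 1.04 ± 0.11 (8.17e-07). Prdm16, the determinant of brown fat, fell by 1.65 ± 0.18 (1.06e-06). The median difference of the list was 0.16, against -0.06 over all probe sets. In UO126 the list had 2 lower genes of 26 tested, Klf5 (-0.50 ± 0.11, 0.0247) and Stat5a (-0.41 ± 0.08, 0.00817). Of all genes there, 1.66% were higher and 1.02% were lower. In SB202190 Id2 was higher (0.71 ± 0.15, 0.0192), and in LY294002 Dlk1, the preadipocyte factor, was higher (0.38 ± 0.08, 0.00959). Each was the only call among 26 genes tested, where 1.70% of all genes were higher in SB202190 and 8.85% in LY294002.

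Among adipocyte genes, 6 were higher and 3 lower of 15 tested in Trichostatin A, where 27.0% of all genes were higher and 22.7% lower. Cidea, a lipid droplet protein of brown fat, rose by 1.31 ± 0.13 (adjusted p = 5.22e-07 from limma), and Dgat2, which makes triglyceride, by 0.95 ± 0.08 (5.33e-08). Plin4, a droplet coat protein, fell by 0.88 ± 0.14 (4.39e-05) there and by 0.56 ± 0.14 (0.0166) in LY294002. Car3, carbonic anhydrase 3, was higher in UO126 (1.11 ± 0.25, 0.0245) and SB202190 (1.40 ± 0.25, 0.00683), as Lpl was. Lpin1, a phosphatidate phosphatase, was higher in SB202190 (0.51 ± 0.09, 0.00497).

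Of the genes of lipid droplets and lipolysis, 8 of 15 were higher and 3 lower in Trichostatin A, where 27.0% of all genes were higher and 22.7% lower. The triglyceride lipase gene Pnpla2 rose by 1.38 ± 0.08 (adjusted p = 8.82e-10 from limma) and its inhibitor G0s2 fell by 1.37 ± 0.09 (2.62e-09), while Lipa, the lysosomal acid lipase, rose by 1.23 ± 0.10 (2.93e-08). G0s2 was lower in LY294002 (-0.44 ± 0.09, 0.00716) and higher in UO126 (0.41 ± 0.09, 0.0233). Plin3 was higher in SB202190 (0.40 ± 0.10, 0.0485). Of 13 PPAR target genes of fatty acid oxidation, 9 were higher and 1 was lower in Trichostatin A, with a median difference of 0.59 against -0.06 over all probe sets. Pdk4, a brake on pyruvate oxidation, rose by 1.86 ± 0.18 (2.18e-07), Cpt1a, the mitochondrial carnitine transferase, by 1.29 ± 0.10 (1.34e-08), and Acadvl by 1.12 ± 0.10 (9.75e-08). Cpt1a was also higher in SB202190 (0.45 ± 0.10, 0.0223) and Acadvl in LY294002 (0.33 ± 0.10, 0.0498).

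Genes of fatty acid uptake and lipoprotein handling were the list with most calls in LY294002, where 2 of 14 were higher and 4 lower. Of all genes tested there, 8.85% were higher and 2.21% were lower. Lipg, endothelial lipase, fell by 0.85 ± 0.14 (adjusted p = 0.00186 from limma) and the lipoprotein receptor gene Scarb1 by 0.64 ± 0.10 (0.00101), and Lrp1 rose by 0.83 ± 0.10 (1.29e-04). In Trichostatin A 2 were higher and 6 lower, where 27.0% of all genes were higher and 22.7% were lower. Among those called were Fabp3 (0.99 ± 0.12, 4.92e-06), Fabp5 (-1.06 ± 0.12, 2.32e-06) and the fatty acid transporter gene Slc27a3 (-1.69 ± 0.09, 1.45e-10). Apoe was the only call of 14 in SB202190 (0.71 ± 0.17, 0.0369), where 1.70% of all genes were higher and 1.01% were lower.

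Of 9 other genes of the renin-angiotensin system tested, 2 were higher and 4 lower in Trichostatin A, where Agt fell. The shares over all genes there were 27.0% higher and 22.7% lower. The peptidase genes Mme (-1.29 ± 0.12, adjusted p = 1.16e-07 from limma) and Enpep (-0.95 ± 0.16, 1.20e-04) and the receptor gene Agtr2 (-0.83 ± 0.24, 0.0103) were lower. In LY294002 Agtr1a (0.50 ± 0.13, 0.0242) and Ctsd (0.33 ± 0.09, 0.0329) were higher. Acute phase genes, whose promoters are known to bind C/EBP factors, had 1 higher and 2 lower of 9 in Trichostatin A (27.0% and 22.7% over all genes). Serpina3n fell by 2.78 ± 0.18, or 6.89-fold (2.24e-09), the haptoglobin gene Hp fell by 1.66 ± 0.15 (1.12e-07), and Socs3, a feedback inhibitor of cytokine signalling, rose by 0.70 ± 0.20 (0.00993). In UO126 Socs3 fell by 1.47 ± 0.20 (6.29e-04), and the other 8 genes of the list that were tested did not pass. Of all genes there, 1.66% were higher and 1.02% were lower.

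**Figure D4:**
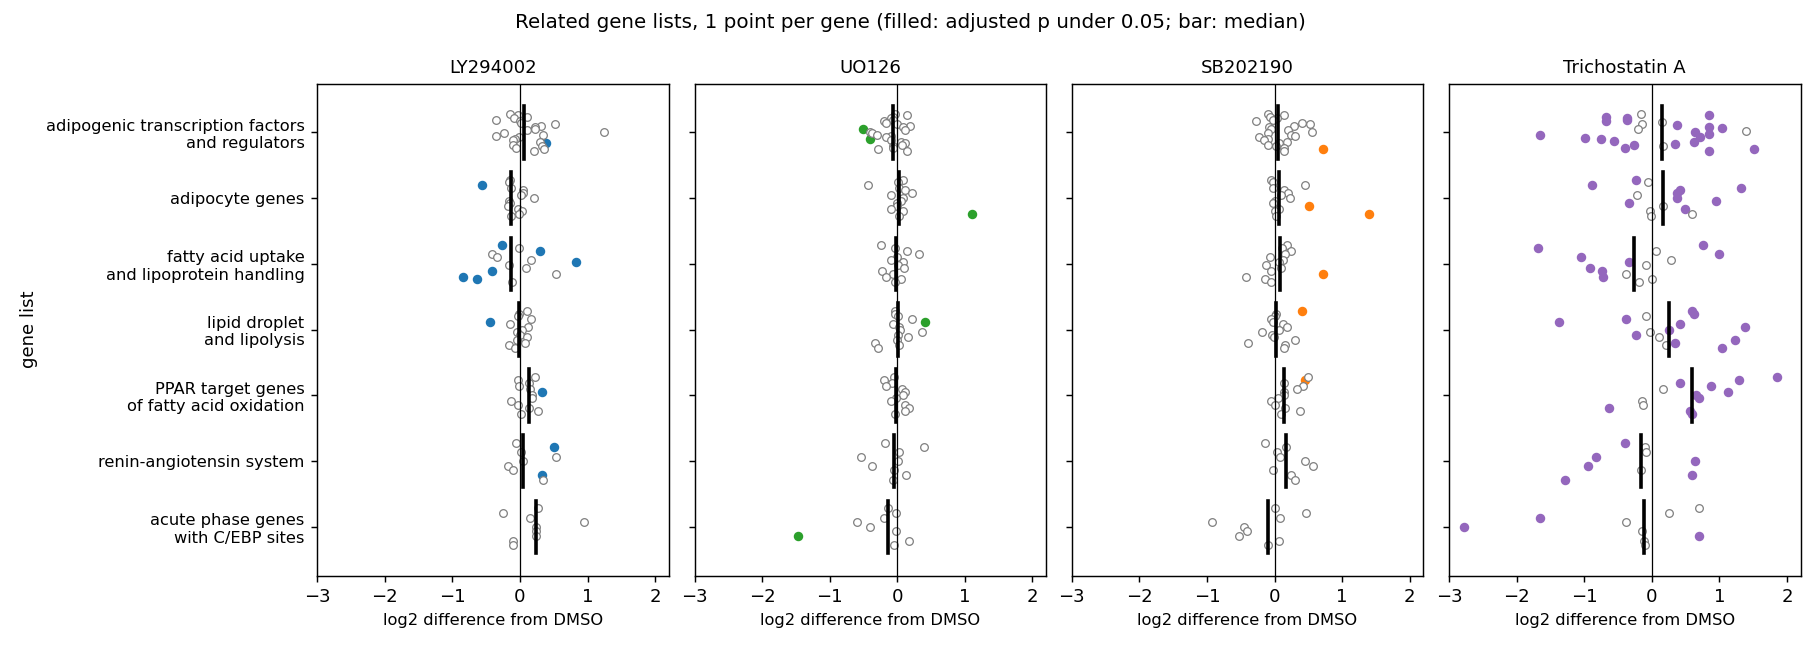
Log2 difference from DMSO (horizontal axes) of the genes of 7 related lists (vertical axis), 1 panel for each inhibitor. Points are genes, filled where the adjusted p from limma was under 0.05, and black bars are medians. The filled point of Gata3 in Trichostatin A passed the limit of the test only through that group. Trichostatin A called genes in both directions in every list, as over all genes (27.0% higher and 22.7% lower), and PPAR target genes of fatty acid oxidation had the highest median, 0.59.

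Across the 15 arrays, which share the 5 treatments, the genes with the pattern most like each widely ranging member were ranked among 16108 genes by Pearson's r. For Cebpa these were C1qtnf12 (r = 0.983), Lig1 (0.982) and Pnpla6 (0.982), and C1qtnf12 had means of 10.73 in DMSO, 11.01 in SB202190 and 10.06 in Trichostatin A. Those of Cebpb were Klf5 (0.967), Id1 (0.963) and Skiv2l (0.962), with Id1 at 10.33 in UO126, 10.97 in DMSO and 12.27 in Trichostatin A. Cebpd was followed by Sema5a (0.948), Fndc3a (0.948) and Gt(ROSA)26Sor (0.944).

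Plin2 had Gsta4 (0.988), Snx10 (0.986) and Lpcat3 (0.970) as its nearest genes, and Gsta4 ranged more widely, from 9.50 in LY294002 to 11.90 in Trichostatin A. Zfp423 had its paralog Zfp521 (0.982), then Wnt5a (0.977) and Casd1 (0.977), and Zfp521 went from 10.38 in DMSO to 10.80 in LY294002 and 8.84 in Trichostatin A. The nearest genes to Fabp4 were less alike, namely Efr3b (0.849), Tmc8 (0.825) and Kbtbd11 (0.820). These likenesses describe the arrays and carry no test.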

How the data were processed

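The deposited table holds log2 signals of Affymetrix mouse expression arrays that the authors had normalized between arrays. The study's methods name GC-RMA for the deposited inhibitor arrays and RMA for the gene set analysis, and the table itself does not settle which was used. Low signals differ most between these methods. Depth has no counterpart on arrays, and 3 arrays a group limit the precision.

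After 64 array controls were left out, 45037 probe sets remained, of which 34945 had 1 gene symbol in the platform annotation, 932 several and 9160 none. Treatment means were fitted over all 15 arrays with limma 3.58.1 in R 4.3.3 (10 residual degrees of freedom, two-sided). Tested were probe sets with a mean of at least log2 of 50 (5.64) in either group, with Benjamini-Hochberg adjustment within each of 10 comparisons. The fit was tested on simulated data for LY294002 versus DMSO only. The simulated arrays were independent, so the test does not cover the correlation between same-numbered arrays. Where several probe sets carried a gene's symbol and no other, the brightest on average represented the gene.

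Named were all members, up to 3 called genes with the largest difference for each list and comparison, and the 3 most correlated genes of members whose means spanned at least 1. The members and lists were chosen with earlier results of these data known. The promoter windows and their coordinates are from RefSeq, build GRCm38.p6.

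Same-numbered samples were judged to be paired where the deviations from group means correlated above 0.1 in all 3 numbers. For DMSO with LY294002 these were 0.768, 0.402 and 0.625, with UO126 0.715, 0.536 and 0.325, and with SB202190 0.236, 0.301 and 0.323. With Trichostatin A they were 0.238, 0.473 and 0.0281, and those numbers were not judged to be pairs. The main fit had no block for any comparison, so its tests treated all arrays as independent. Pairing entered only through the replicate block, which covered the Trichostatin A arrays as well. The alternatives were the replicate block, the compared groups alone, other filters, normalizations and priors, no Trichostatin A arrays, the mean of a gene's probe sets, and leaving out each array.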

Additional observations from a re-analysis of the deposited data

How the results depend on the processing

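Over the members' differences from DMSO, 532 results under alternative settings kept their direction and side of the threshold, 24 lost the threshold, 12 gained it and 14 changed sign. The changes of sign concerned differences that did not pass the test. Quantile normalization gave -0.05 for Cebpa in LY294002 and -0.03 for Plin2 in UO126. Leaving out 1 array gave -0.06 to 0.24 for Cebpa and -0.03 to 0.13 for Agt in LY294002, -0.03 to 0.05 for Plin2 and -0.07 to 0.07 for Agt in UO126, and -0.13 to 0.08 for Cebpb and -0.27 to 0.04 for Cebpd in SB202190.

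The number of members past the threshold in LY294002 was 3, and it was 5 with the replicate block and 1 in each of the compared groups alone, no filter, and no Trichostatin A arrays. Without 1 array it ran from 1 to 4, with 1 without DMSO replicate 2, DMSO replicate 3 or LY294002 replicate 2. In UO126 it was 2, and 4 with the replicate block, and without 1 array it ran from 1 to 2. Between LY294002 and UO126 the replicate block gave 6 in place of 3. Between UO126 and SB202190 it gave 5 in place of 3, and leaving out 1 array gave 1 to 4. The count in Trichostatin A, with Cd36 in it, stayed between 7 and 9, and the replicate block, which gave 9 there, changed no other call in the comparisons with DMSO than those printed with a blocked value. The causes were not tested.

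Over the whole table, LY294002 called 2978 probe sets, or 6370 with the replicate block and 696 with its groups alone. Without 1 array it called 5210 (DMSO replicate 1), 1411 (DMSO replicate 2), 1365 (DMSO replicate 3), 1290 (LY294002 replicate 1) or 1965 (LY294002 replicate 2). UO126 called 667, or 1507 with the block, 318 alone and 1017 after quantile normalization, and 419 without DMSO replicate 3 or 370 without UO126 replicate 3. SB202190 called 669, or 1905 with the block, 368 alone and 1280 after quantile normalization, and 263 to 397 without DMSO replicate 2 or 3 or any SB202190 array.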
